A study of Homo sapiens with 8 samples.

Results

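A set of 10 genes of the cell's oxygen-sensing system, chosen by name, was followed in T47D breast cancer cells: the factor genes HIF1A, EPAS1 and ARNT, the prolyl hydroxylase genes EGLN1, EGLN2 and EGLN3, the coactivator-binding gene CITED2, and the hypoxia targets DDIT4, VEGFA and CA9. A gene was read through probe sets that name it alone, taking the one with the highest mean over the 8 arrays, and this gave values for 8 of the 10 genes, of 18417 genes in all. EGLN2 and CA9 had no such probe set here and are not analysed. The choice was also made on measured values, because estradiol (E2) lowered EPAS1, EGLN3, DDIT4 and CITED2 with each siRNA. E2 values of these genes are therefore given as a description with no test, whereas differences between the siRNAs are tested.

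T47D is an established estrogen receptor-positive luminal line. All cells were kept for 2 days in medium stripped of steroids with charcoal and then given 200 nM of siRNA, either a scrambled control or a mix of 3 siRNAs against 17β-HSD1, the estradiol-forming enzyme encoded by HSD17B1. After 48 hours the medium was renewed with 1 nM E2 or with ethanol (vehicle), and RNA was taken 2 days later. Crossing the 2 siRNAs with the 2 media gave 4 groups, each with 2 Affymetrix Gene 1.0 ST arrays, 1 from each of 2 separate cell culture experiments. The growth medium contained insulin and the incubator held air with added CO2, with no low-oxygen group. Results are for 1 cell line and 1 mix of siRNAs.

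Cells sense oxygen mainly through the stability of a protein. Prolyl hydroxylases encoded by the EGLN genes use oxygen to mark the HIF-α subunits, the products of HIF1A and EPAS1 (HIF-2α), for recognition by the VHL ubiquitin ligase and destruction. When oxygen is short, HIF-α escapes, pairs with the ARNT protein and binds short DNA elements whose core reads ACGTG or GCGTG, which switches on genes of blood vessel growth, glycolysis and pH control. Much of this regulation leaves HIF mRNA levels untouched, and arrays read mRNA, not protein or hydroxylase activity.

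Values are log2 signals, so a difference of 1 is a doubling, and levels are compared between arrays for 1 gene, never between genes. HSD17B1, the siRNA target, read 8.56 to 9.35 on the control siRNA arrays and 8.32 to 8.41 on the 17β-HSD1 siRNA arrays. The difference was -0.56 ± 0.16 (SE, 4 arrays against 4), with a limma adjusted p of 0.221, above the threshold of 0.05. With the experiment fitted as a replicate block, the SE was 0.13 and the limma adjusted p was 0.0827, also above 0.05. All 4 knockdown arrays read below all 4 control arrays, but the gap was smaller in replicate 2. Replicate 1 read 9.35 with control siRNA and 8.41 with 17β-HSD1 siRNA under vehicle, and 9.12 and 8.32 under E2. For replicate 2 these values were 8.66 and 8.36 under vehicle, and 8.56 and 8.37 under E2. Among the vehicle arrays, the first replicate of the knockdown stood apart, with a mean correlation of 0.976 with the other arrays against 0.984 to 0.988 for the rest. On this array the summed log2 signals of 3 marker lists for other cell types were each the highest of the 8 arrays. They were 53.8 for 8 immune markers (49.9 to 51.3 on the other arrays), 66.4 for 10 endothelial markers (63.5 to 65.6) and 60.5 for 9 fibroblast markers (58.0 to 58.9), and their part in the results was not tested. Summed over the 9 luminal markers, among them KRT8, ESR1 and GATA3, that array read lowest of the 8, at 102.6 beside 103.5 to 106.0 on the others. Over all probe sets this array also had the highest lower quartile (5.99) and median (7.37) of the 8 and the lowest upper quartile (8.5). Whether the marker sums follow from this narrower spread of signals was not tested. The table holds no detection calls, so presence or absence of a marker could not be called. In RNA from whole cultures, fewer cells of a type and less RNA per cell cannot be told apart.

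E2 went with a lower EPAS1 signal on every array compared. Given control siRNA, the vehicle arrays read 10.23 and 10.23 (replicates 1 and 2) and the E2 arrays 9.41 and 9.16. Given 17β-HSD1 siRNA, the vehicle arrays read 10.59 and 10.43 and the E2 arrays 10.01 and 9.75. Each E2 array was below each vehicle array, and the 4 groups did not overlap: 17β-HSD1 siRNA with vehicle was highest, then control siRNA with vehicle, then 17β-HSD1 siRNA with E2, and control siRNA with E2 was lowest. Averaged over the siRNAs the E2 difference was -0.79 ± 0.11 (SE, 4 arrays against 4), a 1.73-fold lower signal. It was -0.95 ± 0.16 with control siRNA and -0.63 ± 0.16 with 17β-HSD1 siRNA (2 arrays against 2 each).

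The other subunit genes did not share this pattern. HIF1A, which encodes the more widely expressed HIF-α, read 10.15 and 9.77 with control siRNA and vehicle, 10.01 and 9.92 with control siRNA and E2, 9.34 and 9.88 with 17β-HSD1 siRNA and vehicle, and 9.80 and 9.99 with 17β-HSD1 siRNA and E2. E2 and vehicle arrays overlapped with both siRNAs, and the lowest array was the one that stood apart. The E2 difference of HIF1A was 0.14 ± 0.14 on average and 0.28 ± 0.20 with 17β-HSD1 siRNA, or 0.0080 without that array. ARNT, the common partner of both HIF-α proteins, stayed between 9.27 and 9.56 on all arrays, with an E2 difference of -0.09 ± 0.10.

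CITED2 encodes a transcriptional regulator that binds the CBP and p300 coactivators and keeps HIF from them, and is itself induced by hypoxia. Control siRNA arrays read 10.61 and 10.43 under vehicle, against 9.55 and 9.59 under E2. Knockdown arrays read 10.46 and 10.61 under vehicle, against 10.42 and 9.97 under E2. E2 and vehicle arrays did not overlap with either siRNA, but replicate 1 of 17β-HSD1 siRNA with E2 lay just under its vehicle arrays. The E2 difference was -0.95 ± 0.17 with control siRNA and -0.34 ± 0.17 with 17β-HSD1 siRNA. The latter rested on which E2 array was used: it was -0.56 without replicate 1 of 17β-HSD1 siRNA with E2 and -0.12 without replicate 2.

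**Figure D1:**
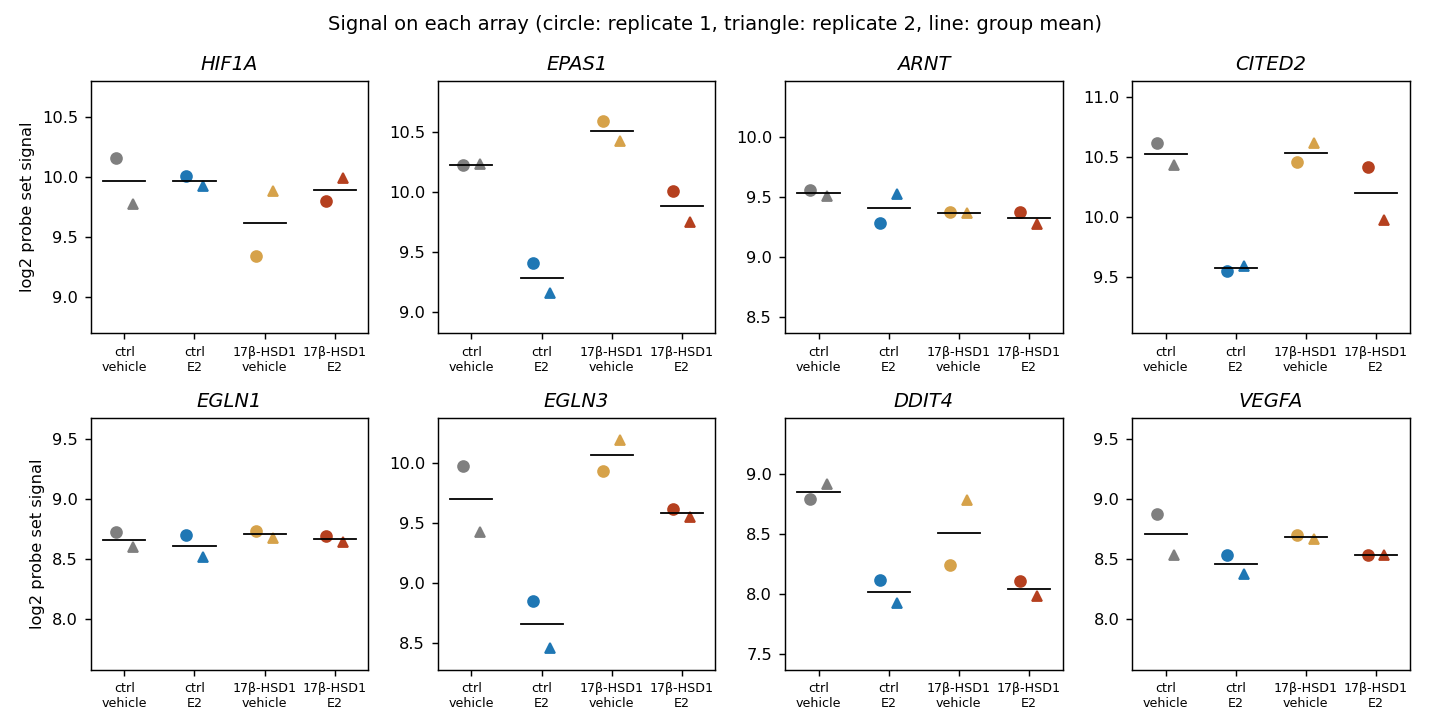
Log2 probe set signal of the 8 measured genes on each array, by group, with circles for replicate 1, triangles for replicate 2 and a line at each group mean; every panel spans the same 2.1 log2 units. EPAS1, CITED2, EGLN3 and DDIT4 were lower on both E2 arrays than on both vehicle arrays with each siRNA. HIF1A, ARNT, EGLN1 and VEGFA ranged over 0.22 to 0.81 log2 units. Group means of ARNT, EGLN1 and VEGFA were also lower in E2 with each siRNA, by smaller amounts, at most -0.25 for VEGFA with control siRNA.

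Among the prolyl hydroxylases, EGLN3 was lower in E2 and EGLN1 stayed in a narrow range. EGLN3 (PHD3) is the family member most strongly induced by HIF itself, and EGLN1 (PHD2) is the main oxygen sensor of most cells. Control siRNA arrays of EGLN3 read 9.97 and 9.42 under vehicle, against 8.85 and 8.46 under E2. Knockdown arrays read 9.94 and 10.20 under vehicle, against 9.62 and 9.55 under E2. Within each siRNA the E2 arrays were below the vehicle arrays, but the 2 E2 arrays of the knockdown lay above the lower vehicle array of the control. The E2 difference was -1.04 ± 0.20 with control siRNA, 2.06-fold lower, and -0.48 ± 0.20 with 17β-HSD1 siRNA. EGLN1 stayed between 8.51 and 8.73 on all 8 arrays, and its averaged E2 difference was -0.04 ± 0.10.

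Of the targets, DDIT4 was lower in E2 and VEGFA differed by less. DDIT4 (REDD1) encodes a stress-induced inhibitor of the growth kinase complex mTORC1. Control siRNA arrays read 8.79 and 8.91 under vehicle, against 8.12 and 7.93 under E2. Knockdown arrays read 8.24 and 8.78 under vehicle, against 8.11 and 7.98 under E2. All 4 E2 arrays were below all 4 vehicle arrays for DDIT4, as for EPAS1 and CITED2 (3 of 8 genes, beside 1.99% of all probe sets). These genes were chosen for being lower in E2, so this share is no independent support. For DDIT4 the 2 E2 groups overlapped. The averaged E2 difference was -0.65 ± 0.13, 1.57-fold lower. With 17β-HSD1 siRNA it was -0.47 ± 0.19, or -0.74 without the vehicle array that stood apart and -0.19 without the other vehicle array. VEGFA, the gene of the main vessel growth factor, read 8.38 to 8.53 on the control siRNA E2 arrays and 8.53 to 8.87 on the control siRNA vehicle arrays. These overlapped only narrowly, with an E2 array at 8.5318 and a vehicle array at 8.5314. Knockdown arrays of VEGFA did not overlap, at 8.70 and 8.66 under vehicle, against 8.53 and 8.53 under E2. Its averaged E2 difference was -0.20 ± 0.11.

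**Figure D2:**
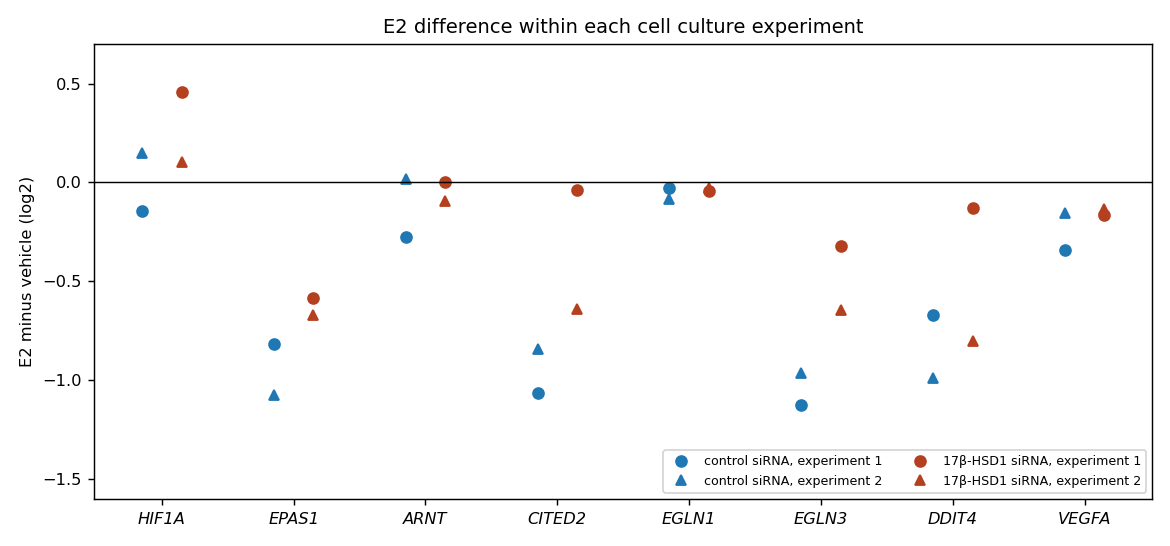
E2 minus vehicle difference in log2 signal for each gene within each cell culture experiment (circles: experiment 1, triangles: experiment 2; blue: control siRNA, red: 17β-HSD1 siRNA). All 4 differences were below 0 for EPAS1, CITED2, EGLN3 and DDIT4, from -0.04 for CITED2 to -1.12 for EGLN3; they were also below 0 for EGLN1 and VEGFA, with smaller sizes.

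Within each experiment the E2 differences of EPAS1 ran from -0.59 to -1.07, those of EGLN3 from -0.32 to -1.12, those of DDIT4 from -0.13 to -0.99 and those of CITED2 from -0.04 to -1.06. For EPAS1 even the smallest of the 4 differences was over 0.5. For all 4 genes the smallest came from experiment 1 with 17β-HSD1 siRNA, the pair that holds the vehicle array that stood apart. Without that array the E2 difference with 17β-HSD1 siRNA was smaller in size for EPAS1 (-0.55 beside -0.63). It was larger in size for EGLN3 (-0.61 beside -0.48), CITED2 (-0.42 beside -0.34) and DDIT4 (-0.74 beside -0.47). E2 arrays lay below vehicle arrays for 4 of the 8 genes with control siRNA, where 18.6% of all 21214 tested probe sets did, and for 5 of 8 with 17β-HSD1 siRNA (11.9% of all), the fifth being VEGFA. For 4 of 8 it held with each siRNA (4.14% of all). These shares only describe genes chosen for being lower. Over the 8 genes, 4 of them chosen for being lower, the median averaged E2 difference was -0.42, beside -0.02 over all probe sets.

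The E2 difference was nearer to 0 with 17β-HSD1 siRNA than with control siRNA for the 4 lowered genes. The response with 17β-HSD1 siRNA minus that with control siRNA was 0.61 ± 0.24 for CITED2, 0.56 ± 0.29 for EGLN3, 0.36 ± 0.26 for DDIT4 and 0.32 ± 0.23 for EPAS1. With 1 array left out these ran from 0.39 to 0.84 for CITED2, from 0.28 to 0.83 for EGLN3, from 0.09 to 0.64 for DDIT4 and from 0.19 to 0.44 for EPAS1. The lowest values came without replicate 1 of 17β-HSD1 siRNA with E2 for CITED2, replicate 1 of control siRNA with vehicle for EGLN3, the array that stood apart for DDIT4 and replicate 2 of control siRNA with E2 for EPAS1. The difference was between 0.02 and 0.28 for the other 4 genes, and the median over all probe sets was 0.00. As these values derive from the E2 differences used in the choice, they are not tested.

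The DNA just ahead of the 4 lowered genes is shown because all 4 were lower in E2 and because HIF targets carry the elements named above. RefSeq windows (GRCh38.p14) were matched for 7 of the 8 measured genes, VEGFA having no entry. Each line gives the 250 bases before the start of transcription, 5′ to 3′ on the gene's strand, with ACGTG and GCGTG on either strand in capitals. They lie at chr2:46297157-46297406 (plus strand) for EPAS1, chr14:33951075-33951324 (minus) for EGLN3, chr10:72273674-72273923 (plus) for DDIT4 and chr6:139374649-139374898 (minus) for CITED2, where the first of 3 listed starts was taken.
EPAS1: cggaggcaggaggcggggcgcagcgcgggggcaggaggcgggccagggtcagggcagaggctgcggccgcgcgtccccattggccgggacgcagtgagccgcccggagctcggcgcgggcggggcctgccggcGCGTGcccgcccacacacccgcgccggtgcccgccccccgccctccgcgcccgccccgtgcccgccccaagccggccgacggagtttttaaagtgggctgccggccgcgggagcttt
EGLN3: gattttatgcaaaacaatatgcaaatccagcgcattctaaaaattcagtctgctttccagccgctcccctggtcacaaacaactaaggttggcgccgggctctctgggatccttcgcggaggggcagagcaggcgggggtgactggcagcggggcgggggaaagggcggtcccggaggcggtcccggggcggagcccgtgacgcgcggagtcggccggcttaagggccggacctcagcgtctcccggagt
DDIT4: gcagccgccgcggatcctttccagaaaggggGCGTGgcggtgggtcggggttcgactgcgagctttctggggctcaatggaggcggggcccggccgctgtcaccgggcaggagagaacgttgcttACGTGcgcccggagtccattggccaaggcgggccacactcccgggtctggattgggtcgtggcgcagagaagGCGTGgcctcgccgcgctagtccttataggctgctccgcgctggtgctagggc
CITED2: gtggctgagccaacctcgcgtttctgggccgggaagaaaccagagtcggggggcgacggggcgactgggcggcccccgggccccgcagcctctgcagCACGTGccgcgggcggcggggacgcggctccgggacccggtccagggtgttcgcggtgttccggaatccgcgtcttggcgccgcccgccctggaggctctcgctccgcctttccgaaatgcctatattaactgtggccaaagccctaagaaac

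DDIT4 held 3 matches, beginning 219, 125 and 53 bases before the start, and 7.76% of all 35116 windows of this length held 3 or more. CITED2 held a single CACGTG, which reads ACGTG on both strands and so counts as 2 matches. EPAS1 held 1 match, 117 bases before the start, and EGLN3 held none. Of all windows 43.2% held at least 1. Among the measured genes outside these 4, HIF1A (first of its listed starts) and EGLN1 held 1 match each and ARNT none. The estrogen receptor half-site GGTCA, searched on both strands, was found once each in the EPAS1 and EGLN3 windows and not in those of DDIT4 and CITED2, beside 32.6% of all windows. It was also found once in the HIF1A window (first listed start) and 2 times in that of ARNT, and not in that of EGLN1. The full palindromic estrogen response element, a half-site and its mirror image with 3 free bases between them, was in none of the 4 windows and in 0.0399% of all. A match is a string of letters and not evidence of binding, and elements farther away were not searched.

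The knockdown comparison sets 17β-HSD1 siRNA beside control siRNA for these genes, with and without added E2. EGLN3, EPAS1 and CITED2 had higher signals with 17β-HSD1 siRNA, with the larger differences in E2, but no gene of the 8 passed the threshold in the averaged knockdown (limma, 0 of 8, beside 0.457% of all probe sets). At an unadjusted p below 0.05 there were 3 of 8, those same 3 genes, beside 9.44% of all. Taken alone, neither vehicle nor E2 gave a call in limma (0 of 8 and 0% of probe sets in each). Unadjusted, 0 of 8 were below 0.05 in vehicle (5.45% of all) and 3 of 8 in E2 (4.61%), again EGLN3, EPAS1 and CITED2. The differences within E2, and through them the averaged ones, share the control siRNA E2 arrays with the E2 comparison. A low reading on those arrays therefore enters both comparisons.

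EGLN3 had the largest knockdown difference of the 8. In E2 it read 8.85 and 8.46 with control siRNA and 9.62 and 9.55 with 17β-HSD1 siRNA, a difference of 0.93 ± 0.20 (2 arrays against 2, limma adjusted p = 0.321). In vehicle the groups overlapped and the difference was 0.37 ± 0.20 (adjusted p = 0.947). That value was 0.64 without replicate 1 of control siRNA with vehicle and 0.09 without replicate 2. The averaged difference was 0.65 ± 0.14, 1.57-fold, with a limma adjusted p of 0.0948 and a 95% interval from 0.33 to 0.97. With the experiment as a replicate block EGLN3 passed (adjusted p = 0.0427), in a fit that called 0.726% of probe sets higher. Over all alternatives its adjusted p ran from 0.0427 to 0.368 and its averaged difference from 0.51 to 0.79.

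EPAS1 was higher on both knockdown arrays than on both control arrays within each medium, which held for 1 of the 8 genes and for 4.69% of all probe sets. The difference was 0.28 ± 0.16 in vehicle (limma adjusted p = 0.947) and 0.60 ± 0.16 in E2 (adjusted p = 0.496). Experiments 1 and 2 gave 0.37 and 0.20 under vehicle, against 0.60 and 0.60 under E2. The averaged difference was 0.44 ± 0.11, 1.36-fold, with a limma adjusted p of 0.152, or 0.0683 with the replicate block.

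CITED2 differed by 0.01 ± 0.17 in vehicle and by 0.62 ± 0.17 in E2 (limma adjusted p of 0.993 and 0.528). In E2 the knockdown arrays were above the control arrays for CITED2, EGLN3 and EPAS1, 3 of 8 genes beside 18.1% of all probe sets. These genes were chosen partly for low control siRNA E2 arrays, the lower side here, so this share is no independent support. The averaged difference of CITED2 was 0.32 ± 0.12 (limma adjusted p = 0.408). Without replicate 1 of 17β-HSD1 siRNA with E2 the CITED2 values were 0.40 in E2 and 0.21 averaged, and without replicate 2 they were 0.84 and 0.43.

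For the other 5 genes the averaged differences were between -0.21 and 0.05. DDIT4 differed by -0.34 ± 0.19 in vehicle (limma adjusted p = 0.947) and by 0.02 ± 0.19 in E2, and HIF1A by -0.35 ± 0.20 and -0.07 ± 0.20. Without the array that stood apart these vehicle values were -0.07 for DDIT4 and -0.08 for HIF1A, and without the other knockdown vehicle array -0.61 and -0.62. Averaged differences of ARNT, EGLN1 and VEGFA were -0.12 ± 0.10, 0.05 ± 0.10 and 0.03 ± 0.11, with 95% intervals from -0.35 to 0.10, from -0.17 to 0.28 and from -0.22 to 0.27.

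**Figure D3:**
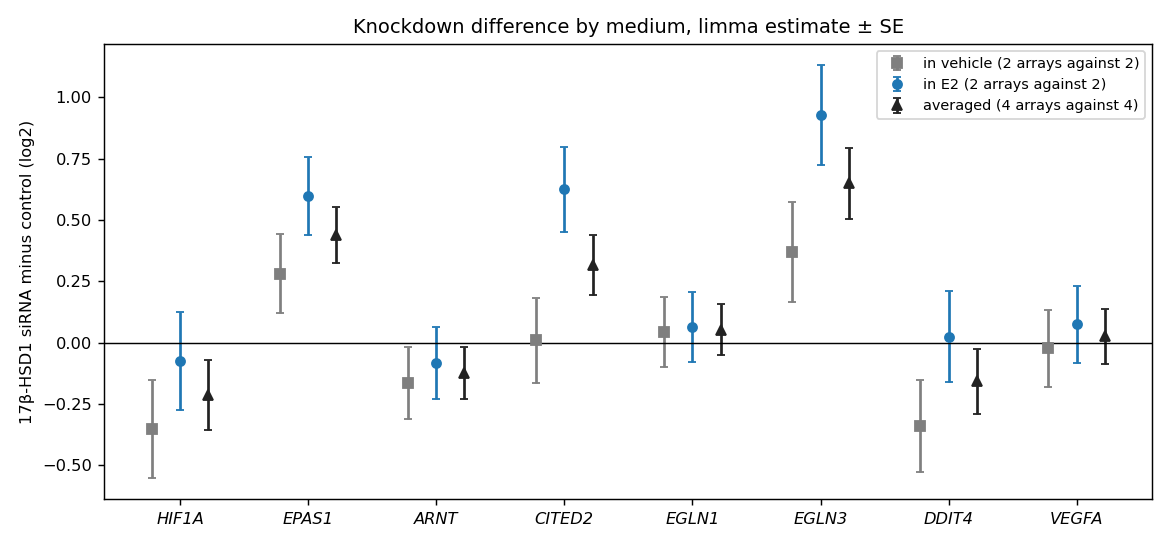
Knockdown difference (17β-HSD1 siRNA minus control siRNA, log2) of each gene in vehicle (squares), in E2 (circles) and averaged over both media (triangles), as limma estimates with SE bars. EGLN3, EPAS1 and CITED2 lay highest in E2, at 0.93, 0.60 and 0.62, and no gene passed an adjusted p of 0.05 in this fit. With the experiment as a replicate block EGLN3 passed in the averaged difference (limma adjusted p = 0.0427).

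Genes with the most similar course over the 8 arrays were looked up for the 4 lowered genes, as the mean absolute difference between profiles centred on their own mean, among 18416 other genes. EPAS1 was closest to KLHL24 (0.127), ZFP36L2, which encodes an mRNA-destabilising zinc finger protein (0.134), and SOX13 (0.134), and the fourth was CITED2 itself (0.135). CITED2 was closest to the antiproliferative gene BTG1 (0.0605), NBEA (0.0974) and CLN3 (0.109), with EPAS1 in place 14. EGLN3 was closest to ZNF175 (0.151), DENND11 (0.176) and the iron exporter gene SLC40A1 (0.178), with EPAS1 in place 13 and CITED2 in place 16. The closest to DDIT4 were ENC1 (0.0952), ELF5 (0.0955), a luminal progenitor factor gene, and EPB41L5 (0.0996), with CITED2 in place 490, EPAS1 in place 2031 and EGLN3 in place 13671. The 3 neighbours of DDIT4 had knockdown differences between -0.06 and -0.02, and the 9 neighbours of EPAS1, EGLN3 and CITED2 between 0.25 and 0.51. Neighbours were picked on these same arrays, so knockdown differences like those of their gene follow from the choice. The 4 lowered genes were themselves chosen for E2 falls on these arrays, so their places among each other follow in part from that choice. A likeness of this kind describes the 8 arrays and is not tested.

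The wider pathway was read through 7 lists. Of 130 further genes in them, 121 were measured. In the averaged E2 difference 1 of the 121 fell and 1 rose by limma, beside 0.226% and 1.32% of all probe sets. With the replicate block 3 fell and 6 rose, beside 0.547% and 1.85% of all. Without it, 24 of the 121 had a limma unadjusted p below 0.05. The share of all probe sets doing so is not given here, so that count cannot be read as an excess. Differences were below 0 for 63 of the 121, with a median of -0.01 beside -0.02 over all. The gene that fell was INSIG2, a hypoxia target that holds the sterol-sensing SREBP complex in the endoplasmic reticulum. Control siRNA arrays read 9.19 and 9.37 under vehicle, against 8.11 and 8.36 under E2. Knockdown arrays read 9.12 and 9.85 under vehicle, against 9.07 and 9.17 under E2. The difference was -0.71 ± 0.15 (limma adjusted p = 0.0491), and its adjusted p ran from 0.0561 to 0.207 when any array but the one that stood apart was left out, and was 0.202 with all probe sets of the array in the fit. The gene that rose was CA12, a membrane carbonic anhydrase induced by both estrogen and hypoxia, by 0.75 ± 0.12, 1.68-fold (adjusted p = 0.0116). Among the other carbonic anhydrases CA8 was nearest, at 0.54 ± 0.13 (limma adjusted p = 0.0682, or 0.0247 with the replicate block). The CA12 call was lost without replicate 1 or 2 of 17β-HSD1 siRNA with E2 (0.0514 and 0.0795) and with all probe sets (0.0690).

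Of 24 measured genes of the HIF machinery, none passed in the E2 difference, with a median of 0.06. SIAH2, a ubiquitin ligase that removes prolyl hydroxylases, was nearest, with control siRNA arrays at 9.24 and 9.35 under vehicle, against 9.76 and 10.02 under E2 (averaged 0.47 ± 0.11, limma adjusted p = 0.055, or 0.0369 with the replicate block). VHL, which recognises hydroxylated HIF-α, and HIF1AN, which blocks its coactivator contact, differed by -0.06 ± 0.12 and -0.03 ± 0.13, values looked up after the fit.

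The 20 glycolysis genes had a median E2 difference of 0.04 and none passed. PFKFB3, which makes the activator of phosphofructokinase, differed by 1.22 ± 0.29 (limma adjusted p = 0.0778). Its knockdown arrays read 8.55 and 7.97 under vehicle, against 9.97 and 8.90 under E2, with experiment 1 higher in each medium. With the replicate block it passed (adjusted p = 0.000832), as did PFKP (0.60 ± 0.15, adjusted p = 0.0904, or 0.0291 with the block). Both went the opposite way to EPAS1.

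The 33 other hypoxia-induced genes had a median of -0.04. NDRG1, a stress-induced growth suppressor gene, differed by -0.66 ± 0.15 and HILPDA, a lipid droplet protein gene, by -0.48 ± 0.11 (limma adjusted p = 0.0567 and 0.0708, or 0.0224 and 0.0358 with the block). STC2, named after its values were seen, differed by 1.78 ± 0.48 (limma adjusted p = 0.123) and passed with the block (adjusted p = 0.00749). Its control siRNA vehicle arrays lay far apart, at 10.42 and 7.59, and the difference was 2.48 without the first of them and 1.07 without the second. The mitophagy gene BNIP3, and the glucose transporter gene SLC2A1 and LDHA of the glycolysis list, also named after their values were seen, differed by -0.04 ± 0.16, -0.07 ± 0.12 and 0.25 ± 0.12. Among 11 genes reported to lean on EPAS1 rather than HIF1A, the E2 median was 0.00 and none passed, the nearest being SLC11A2, a ferrous iron transporter (-0.35 ± 0.11, limma adjusted p = 0.264).

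VEGF family and receptor genes (8 measured), the 13 carbonic anhydrases and the 12 genes around DDIT4 and mTOR had E2 medians of 0.00, -0.03 and -0.05. In the averaged knockdown 0 of the 121 genes passed in limma, with and without the replicate block, and 16 had an unadjusted p below 0.05 (9.44% of all probe sets). Here leaving out 1 array gave at most 1: INSIG2 without the array that stood apart, ALDOC without replicate 2 of control siRNA with E2, or PFKP without replicate 2 of control siRNA with vehicle. The glycolysis genes were below 0 in 18 of 20 cases with a median of -0.15, beside 45.6% below 0 and a median of 0.01 over all probe sets. The luminal markers were below 0 in 7 of 9 cases with a median of -0.14, and the HIF machinery genes in 15 of 24 with a median of -0.08. Without the array that stood apart the glycolysis genes were below 0 in 17 of 20 cases with a median of -0.13, beside 57.9% and -0.03 over all. Their part in the glycolysis values was not tested. ALDOC differed by -0.72 ± 0.19, PFKP by -0.55 ± 0.15 and GPI by -0.50 ± 0.15 (limma adjusted p between 0.165 and 0.232). INSIG2 differed by 0.54 ± 0.15 (limma adjusted p = 0.197), higher after 17β-HSD1 siRNA as EGLN3 was. Its vehicle arrays overlapped between the siRNAs. In E2 it read 8.11 and 8.36 with control siRNA, and 9.07 and 9.17 with 17β-HSD1 siRNA. Those control siRNA E2 arrays also enter its E2 difference.

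**Figure D4:**
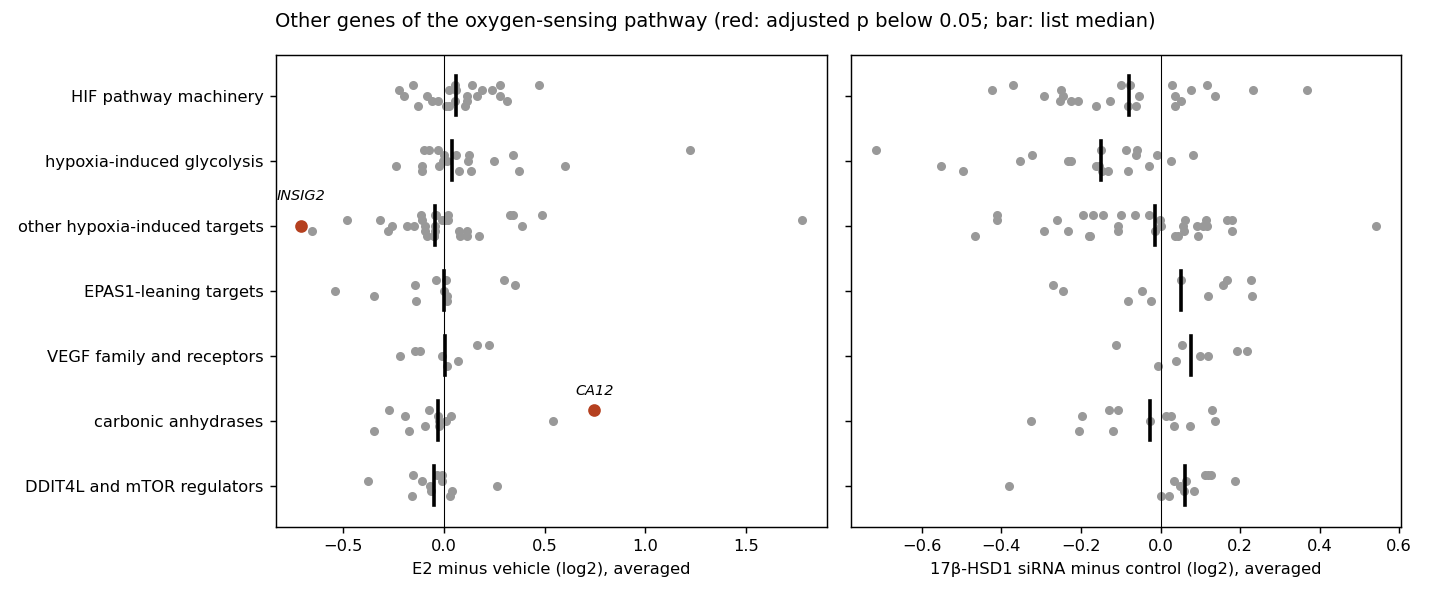
Averaged E2 difference (left) and averaged knockdown difference (right), both log2, of the 121 other measured genes by list, 1 point per gene with a bar at each list's median; red points passed an adjusted p of 0.05. INSIG2 and CA12 passed in the E2 comparison and no gene passed in the knockdown.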

How the data were processed

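Log2 probe set signals of 8 Human Gene 1.0 ST arrays were used as deposited by the authors. The log2 scale was read from the values (2.42 to 15.16), and how signals were summarised, background-corrected and normalized is not given in the sources used here. Gene symbols came from the platform annotation. Of 19460 probe sets with 1 symbol, 19429 matched RefSeq (GRCh38.p14) by gene identifier, and 0 symbols needed an update. A linear model with a mean for each of the 4 groups was fitted in limma (version 3.58.1, R version 4.3.3, eBayes) to 21214 probe sets with at least 1 symbol, and p-values were Benjamini-Hochberg adjusted over all of them. Calls needed an adjusted p below 0.05. The procedure was tested on simulated data.

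Members and lists were chosen with earlier results of these data known. Named genes are the members, list genes that were called or had 1 of the 3 smallest p values, and 3 genes of most similar course per lowered member. The labels number the replicates and say they came from 2 cell culture experiments, which is the source of the pairing. Deviations of same-numbered arrays from their group means correlated at 0.44 between the media with control siRNA and 0.42 with 17β-HSD1 siRNA. Between the siRNAs they correlated at -0.20 in vehicle and 0.31 in E2. The value was 0.007 for control siRNA with vehicle against 17β-HSD1 siRNA with E2, and 0.31 for the opposite pair. Alternatives were the replicate block, quantile normalization, a trended robust spread, all probe sets, bright probe sets, 1 probe set per gene, means over probe sets, fits on 4 arrays and leaving out each array. The number of arrays limits the precision.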

Additional observations from a re-analysis of the deposited data

How the results depend on the processing

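The count of the 8 genes called in the averaged knockdown was 0 in limma and 1 (EGLN3) with the replicate block, and 0 under every other alternative, including each array left out. The counts in vehicle and in E2 were 0 throughout. Of the 121 pathway genes, those lower in E2 numbered 1, against 0 with all probe sets, 2 with the trended robust spread, 3 with the replicate block and 0 to 1 with an array left out. Those higher in E2 numbered 1, against 0 with all probe sets, 2 with bright probe sets, 6 with the replicate block and 0 to 4 with an array left out (4 without replicate 1 of control siRNA with vehicle, 3 without replicate 2 of control siRNA with E2). Those called in the averaged knockdown numbered 0, and 0 to 1 with an array left out. The block changed no other call of the 8 genes. The causes were not tested.

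Small differences changed sign with an array left out. In the knockdown within E2, HIF1A ran from -0.17 to 0.0212, ARNT from -0.21 to 0.0393, EGLN1 from -0.0261 to 0.15, DDIT4 from -0.0711 to 0.12 and VEGFA from -0.0033 to 0.15. In vehicle, CITED2 ran from -0.0808 to 0.10, EGLN1 from -0.0176 to 0.10 and VEGFA from -0.19 to 0.15, and VEGFA was 0.0225 after quantile normalization. The averaged knockdown difference of VEGFA ran from -0.0591 to 0.11. With 2 arrays per group and no detection calls, differences of this size cannot be resolved. Where an arm kept a single array, it was assumed to vary like the other groups.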
